A study of Mus musculus with 8 samples.

Results

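Phase II conjugating enzymes join a soluble group to a drug, hormone, bile pigment or reactive metabolite so that it can be excreted. The genes described here were chosen by name: a platform symbol starting with Gsta, Gstk, Gstm, Gsto, Gstp, Gstt, Gstz, Mgst, Ugt1, Ugt2, Ugt3 or Sult, or the symbol Nat1, Nat2 or Nat8. Of 18193 genes with a probe set of exactly 1 symbol, 49 met the rule: 23 glutathione transferases, 10 UDP-glucuronosyltransferases, 13 sulfotransferases and 3 acetyltransferases. Each gene was represented by its brightest probe set over the 8 arrays. Of the 49 genes, 40 had a mean of at least 5.80 on the log2 scale, which is the median over probe sets that are not controls, and were tested. The other 9 were left out as dim.

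Whole-liver RNA was measured on 8 Affymetrix arrays, 1 per mouse, in 5 POMCMfn2KO and 3 control mice aged 6 weeks. POMCMfn2KO mice lack the mitochondrial fusion gene Mfn2 in POMC neurons, the hypothalamic cells that make the satiety peptide precursor, as their name gives it; the control genotype is labelled WT. Both groups had a mixed C57Bl/6J, FVB/N and 129 background, ate standard chow at will, and were kept on a cycle of 12 h light and 12 h dark. The labels used here state no sex, collection time, batch, Cre driver or floxed allele, and the liver arrays do not check a deletion in neurons.

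Glutathione transferases attach glutathione to electrophiles, UDP-glucuronosyltransferases add glucuronic acid from UDP-glucuronate, sulfotransferases move sulfate from the activated donor PAPS, and acetyltransferases use acetyl-CoA. Hepatocytes carry most of this work, and the cytosolic enzymes act on products of the cytochrome P450 reactions as well as on the body's own steroids, bile acids and thyroid hormones. The transcription factors NRF2, AHR, CAR and PXR are textbook inducers of many of these genes.

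The arrays had medians between 5.79 and 5.81. The hepatocyte markers gave a summed level (log2 of the sum) of 17.06 to 17.19 in POMCMfn2KO and 17.03 to 17.04 in control liver. Of the 5 measured, Cps1 was higher (0.31, adjusted p = 0.0264), and Alb, Apoa1, Ttr and Tat differed by -0.01, 0.12, -0.11 and 0.44 without passing. The endothelial marker Stab2 rose too (0.55, adjusted p = 0.0107), as 1 of 5 tested markers of its list. The 9 measured pancreatic acinar markers summed to 14.27 and 14.40 in POMCMfn2KO 2 and 3, against 10.30 to 10.96 in POMCMfn2KO 1, 4 and 5 and 10.26 to 10.29 in controls. Of the 4 measured erythroid markers 3 were dim, and the fourth, Alas2, carried the sum: it stood at 10.20 in POMCMfn2KO 4 and 7.78 to 8.12 in the other POMCMfn2KO livers, against 8.15 to 8.20 in controls. Hba-a1, Epb42 and Slc4a1 stood at 4.38, 4.91 and 4.78 in POMCMfn2KO 4, against 4.5 to 4.56, 4.80 to 4.90 and 4.91 to 5.07 in controls. The 6 neutrophil markers, 2 of them dim, summed to 8.29 to 8.48 in POMCMfn2KO and 8.97 to 9.03 in control liver. S100a9 was lower by limma (-1.56) and the dim S100a8 differed by -1.47, while Ngp, Camp and Elane differed by -0.19, -0.09 and 0.09 without passing. The part of these markers in the results below was not tested, and in whole liver fewer cells of a type and less RNA per cell cannot be told apart.

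The conjugating enzymes moved in both directions, with most of the called ones lower in POMCMfn2KO liver. Of the 40 tested, 6 rose and 13 fell by limma at an adjusted p of 0.05, which is 15% and 32.5% of them; over all 11986 genes tested, 7.02% rose and 10.9% fell, 18.0% in all. At least 2-fold changes were called for 9 of the 40 enzymes, against 1.34% of all genes. The groups did not overlap in 17 of the 40 (42.5%), against 28.5% of all genes. The median log2 difference was -0.16 over the 40, against -0.02 over all genes tested.

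**Figure D1:**
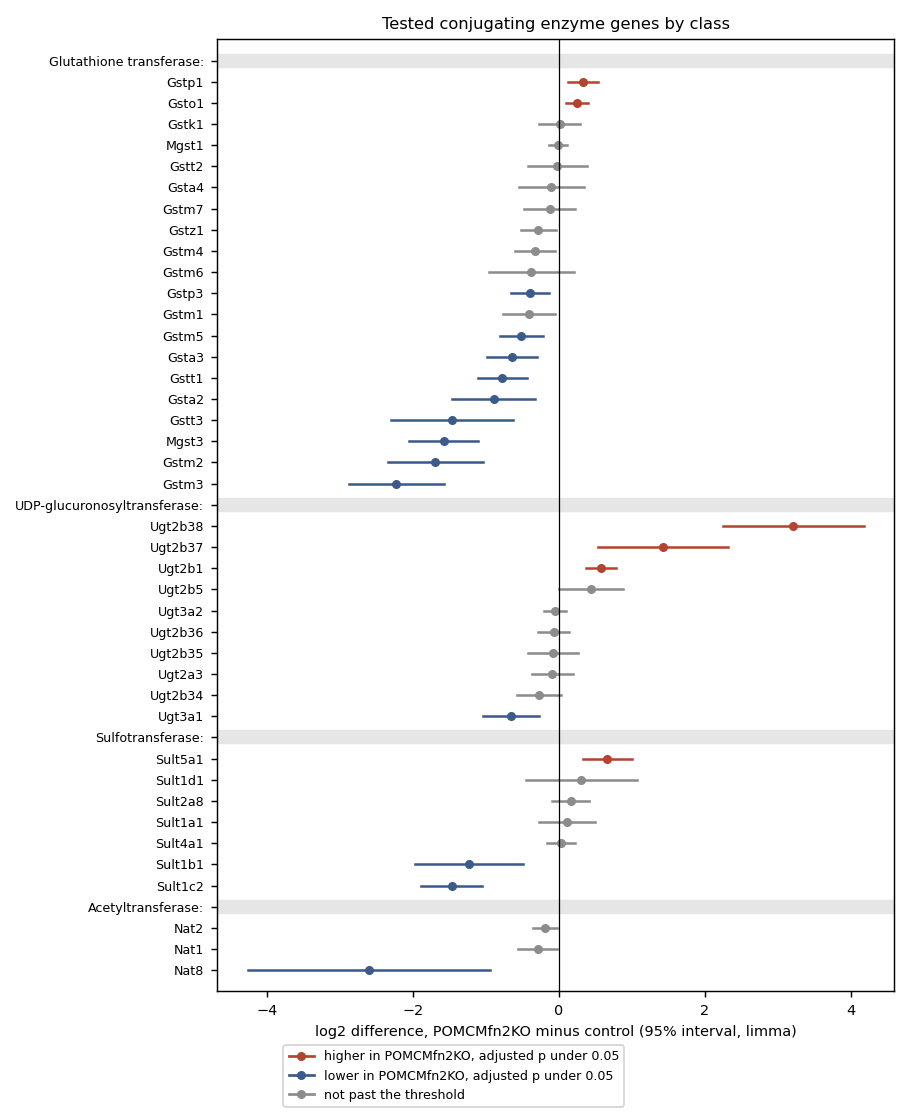
Log2 difference, POMCMfn2KO minus control, for the 40 tested conjugating enzyme genes by class; points are the differences and lines their 95% intervals from limma (n = 5 POMCMfn2KO and 3 control livers). Of the 20 glutathione transferases, 9 were called lower (blue) and 2 higher (red), and Ugt2b38 lies farthest to the right at 3.21.

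These counts depended on single arrays. Without control 1, 2 or 3, each left out alone, 2 enzymes were called higher and 5 lower. Without POMCMfn2KO 2 or 3, each alone, 3 enzymes were higher and 7 lower. Without POMCMfn2KO 5, 3 enzymes were higher and 12 lower. Calls over all genes dropped in these fits too, from 842 higher and 1310 lower with all arrays. Leaving out control 1, 2 and 3 singly gave 325 and 496, 286 and 534, and 303 and 560. Leaving out POMCMfn2KO 2, 3 and 5 singly gave 570 and 913, 507 and 892, and 701 and 1254. With POMCMfn2KO 2 and 3, whose pancreatic sums were high, left out together, 2 enzymes were higher and 5 lower. In that fit 5.34% of all genes were called, against 18.0% with all arrays. The calls of Gstm2, Gstm3, Mgst3, Ugt2b1, Ugt2b38 and Sult1c2 held in all of these fits.

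Spread among the POMCMfn2KO livers was a feature of the whole set. The median SD was 0.30 among the POMCMfn2KO arrays and 0.05 among the controls for the 40 enzymes, and 39 of 40 had the larger SD in POMCMfn2KO. Over all 11986 genes tested the medians were 0.13 in POMCMfn2KO and 0.07 in control liver, and 9593 genes had the larger SD in POMCMfn2KO. POMCMfn2KO 4 lay nearest to the control mean in 15 of the 19 called enzymes (78.9%) and in 1063 of the 2152 called genes (49.4%). Its Alas2 level was also the highest, with no such difference in the 3 dim erythroid markers.

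**Figure D2:**
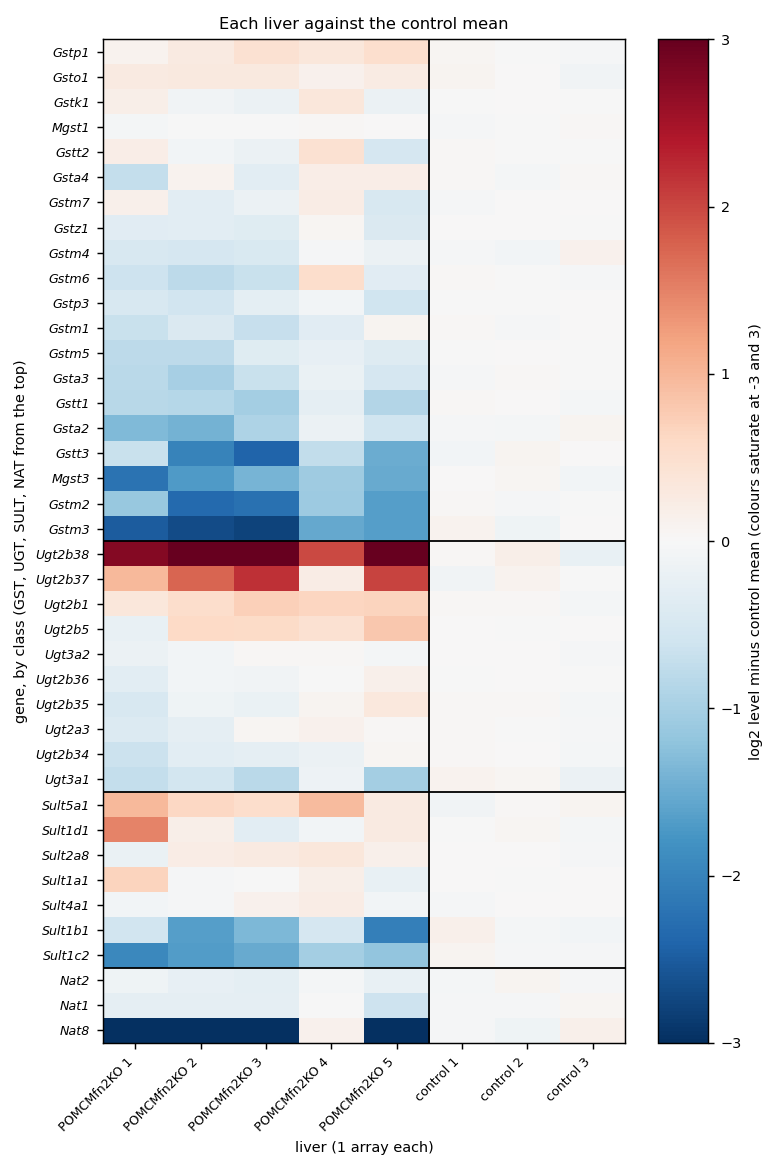
Log2 level of each tested enzyme gene in each liver minus the control mean (colour scale in log2 units, saturating at -3 and 3); genes run down the page by class, POMCMfn2KO livers 1 to 5 stand left of the 3 control livers. The control columns are near white, while the POMCMfn2KO columns differ among themselves, with paler blue in POMCMfn2KO 4 for most of the genes that fell.

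Among the glutathione transferases, 9 of 20 tested genes fell, 2 rose and 9 did not pass the test; the median log2 difference was -0.39. With any 1 control dropped 4 fell, and with POMCMfn2KO 2 or 3 dropped 6 fell; both rises were lost in each of these fits and without POMCMfn2KO 5. The falls reached furthest in the mu class, whose enzymes detoxify epoxides and other electrophiles. Gstm3 stood at 8.06, 7.86, 7.77, 9.02 and 8.90 in POMCMfn2KO 1 to 5, against 10.66, 10.42 and 10.56 in controls. It fell by 2.23, or 4.68-fold (adjusted p = 0.0019, limma). Gstm2 stood at 9.21, 7.99, 8.09, 9.25 and 8.69 in POMCMfn2KO liver, against 10.38, 10.30 and 10.32 in controls. It fell by 1.69, or 3.23-fold (adjusted p = 0.0060). For both genes all POMCMfn2KO livers lay below all controls, by more than 1 log2 unit, and livers 4 and 5 (Gstm3) or 1 and 4 (Gstm2) were the least low. A dimmer second probe set of Gstm3 was lower by only 0.71, and probe sets of this family can bind transcripts of close relatives.

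Gstm5 also fell, by 0.51 (adjusted p = 0.0260), with 8.30 to 8.83 in POMCMfn2KO and 9.08 to 9.11 in control liver; its call was lost when control 1, 2 or 3 was dropped (adjusted p at most 0.0954). The remaining mu-class genes did not pass. Gstm1 had 12.62, 12.86, 12.59, 12.94 and 13.37 in POMCMfn2KO liver, against 13.33, 13.25 and 13.30 in controls (difference -0.41, adjusted p = 0.103). Only POMCMfn2KO 5 reached the controls, and without it Gstm1 passed (adjusted p = 0.0109). Its 3 other probe sets gave differences of -0.39 to -0.55. Gstm4 differed by -0.33, Gstm6 by -0.38 and Gstm7 by -0.12, and Gstm4 and Gstm6 passed once POMCMfn2KO 4 was left out (adjusted p = 0.0205 and 0.00443).

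The 7 mu-class genes are neighbours on chromosome 3, in the order Gstm5, Gstm7, Gstm6, Gstm3, Gstm2, Gstm1 and Gstm4, and all 7 differences were below 0. The 2 largest belonged to the adjacent pair Gstm3 and Gstm2. The bases upstream of the called mu-class genes are shown because neighbours differed in size of change; each is the 250 bases before the RefSeq start (GRCm38.p6), 5′ to 3′ on the gene's strand. Capitals mark the antioxidant response element core searched for, TGACNNNGC on both strands, the element that NRF2 binds with small MAF proteins.
Gstm3, chr3:107969175-107969424, minus strand: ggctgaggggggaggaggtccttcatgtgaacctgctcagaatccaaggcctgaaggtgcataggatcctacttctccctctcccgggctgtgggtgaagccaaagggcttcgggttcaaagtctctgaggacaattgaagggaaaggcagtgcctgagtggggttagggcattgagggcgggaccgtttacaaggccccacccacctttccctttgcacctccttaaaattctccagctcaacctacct
Gstm2, chr3:107986421-107986670, minus strand: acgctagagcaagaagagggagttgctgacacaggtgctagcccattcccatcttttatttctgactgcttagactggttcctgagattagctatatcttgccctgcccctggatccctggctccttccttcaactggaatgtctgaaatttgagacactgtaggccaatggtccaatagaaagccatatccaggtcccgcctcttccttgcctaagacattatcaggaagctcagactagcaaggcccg
Gstm5, chr3:107895604-107895853, plus strand: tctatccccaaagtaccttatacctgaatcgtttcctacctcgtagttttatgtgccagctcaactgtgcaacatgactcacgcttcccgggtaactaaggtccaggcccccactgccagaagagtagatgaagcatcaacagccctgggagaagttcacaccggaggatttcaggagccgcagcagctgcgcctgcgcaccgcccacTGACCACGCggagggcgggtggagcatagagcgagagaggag
The core was found in Gstm5, 42 bases before the start, and not in these windows of Gstm3 or Gstm2. Aligned pairwise, the mu-class windows of Gstm1 to Gstm5 shared 44.0% to 49.6% of their columns.

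**Figure D3:**
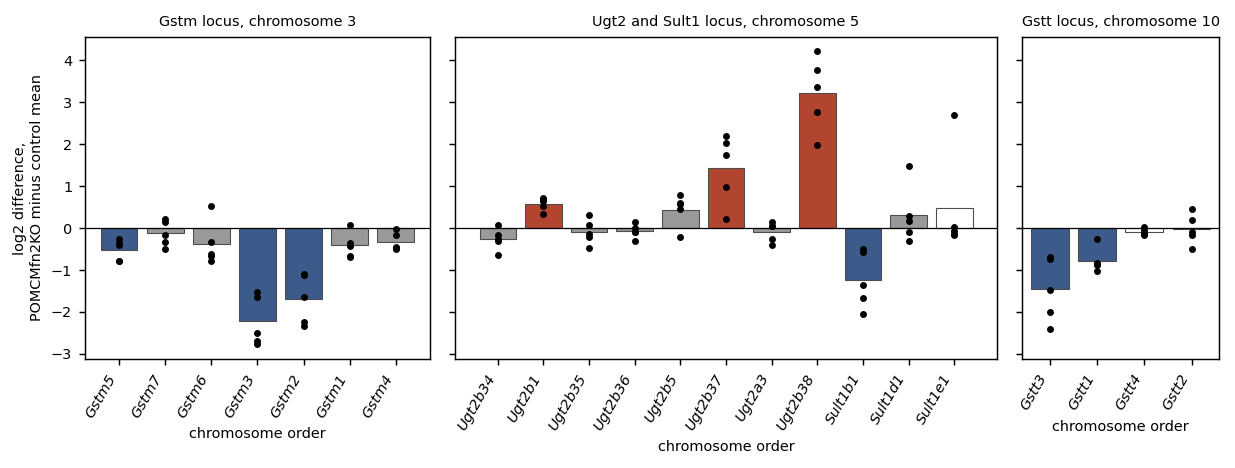
Log2 difference from the control mean for enzyme genes at 3 loci, in chromosome order from left to right; bars are the mean over 5 POMCMfn2KO livers and points the single livers (red higher, blue lower, grey not past the threshold, white not tested). Gstm3 and Gstm2 fell next to genes with differences of -0.12 to -0.51, and Ugt2b38 rose by 3.21 beside Sult1b1, which fell by 1.23.

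Both called alpha-class genes fell. Gsta2 had 8.54, 8.43, 8.93, 9.68 and 9.26 in POMCMfn2KO liver, against 9.84, 9.80 and 9.95 in controls, and fell by 0.89 (adjusted p = 0.0397). Its groups did not overlap, but POMCMfn2KO 4 came close to the lowest control. Gsta3, whose enzyme conjugates the aflatoxin epoxide in mice, had 12.59, 12.40, 12.74, 13.20 and 12.90, against 13.37, 13.45 and 13.40 in controls, and fell by 0.64 (adjusted p = 0.0220). A second Gsta3 probe set was lower by 0.98. Gsta4, which acts on the lipid peroxidation product 4-hydroxynonenal, differed by -0.10 (adjusted p = 0.762). Gsta2 lost its call when any 1 control or POMCMfn2KO 1, 2 or 3 was dropped (adjusted p at most 0.132), and Gsta3 without any 1 control or POMCMfn2KO 3 (up to 0.0887).

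The upstream window of Gsta3 is shown because it holds the antioxidant response element core in the gene whose fall was measured by 2 probe sets.
Gsta3, chr1:21240335-21240584, plus strand: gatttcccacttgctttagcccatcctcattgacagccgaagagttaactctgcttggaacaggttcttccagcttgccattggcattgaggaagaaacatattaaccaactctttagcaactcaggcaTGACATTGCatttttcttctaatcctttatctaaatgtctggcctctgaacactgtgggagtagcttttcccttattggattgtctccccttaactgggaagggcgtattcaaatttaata
The match lies 121 bases before the start. Over the 42 enzyme genes with a window in the RefSeq table, 4 held the core: Gsta3 and Gstm5, which fell, and Gstm7 and Mgst1, which did not pass the test. Of 27025 genes in the table, 11.5% held it. The xenobiotic response element core GCGTG, which AHR binds, was found in 9 of the 42, against 30.9% of all genes. A match is a run of letters, not a measured binding site.

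The theta class, whose enzymes act on halogenated hydrocarbons, had 2 genes that fell. Gstt3 had 9.22, 7.90, 7.49, 9.17 and 8.42 in POMCMfn2KO liver, against 9.82, 9.98 and 9.91 in controls, and fell by 1.46, or 2.75-fold (adjusted p = 0.0263). Gstt1 had 11.81, 11.80, 11.63, 12.39 and 11.77, against 12.70, 12.66 and 12.60 in controls, and fell by 0.77, or 1.71-fold (adjusted p = 0.0095). No POMCMfn2KO liver reached the controls for either gene, and POMCMfn2KO 4 was the least low for Gstt1. Gstt2, at the other end of the same chromosome 10 cluster, differed by -0.02, with a 95% interval of -0.43 to 0.39. Gstt3 lost its call when any 1 control or POMCMfn2KO 2 was dropped (adjusted p at most 0.0954), and Gstt1 only without POMCMfn2KO 2 and 3 together (0.0628), where Gstt3 fell by 0.96.

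The pi class split. Gstp1, which also binds the stress kinase JNK, had 14.30, 14.47, 14.65, 14.52 and 14.68 in POMCMfn2KO liver, against 14.24, 14.17 and 14.16 in controls, and rose by 0.34 (adjusted p = 0.0345). Gstp3, its neighbour on chromosome 19, had 12.46, 12.37, 12.65, 12.86 and 12.35, against 12.94, 12.93 and 12.95 in controls, and fell by 0.40 (adjusted p = 0.0422). Neither pair of groups overlapped. Gsto1, an omega-class enzyme that reduces dehydroascorbate, rose by 0.25 (adjusted p = 0.0363), with 11.32 to 11.48 in POMCMfn2KO and 11.08 to 11.27 in control liver; a second probe set was higher by 0.38. All 3 calls were lost when any 1 control or POMCMfn2KO 2, 3 or 5 was dropped, and that of Gstp3 also without POMCMfn2KO 1 (adjusted p at most 0.120 for Gstp1, 0.130 for Gstp3 and 0.148 for Gsto1). Gstp1 was also lost with quantile normalization (0.0504), and Gstp3 with arrays centred on the tested genes (0.0590).

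The membrane-bound enzymes of Mgst3 and Mgst1 differed from each other. Mgst3, a microsomal enzyme with peroxidase activity, had 7.42, 7.93, 8.23, 8.58 and 8.13 in POMCMfn2KO liver, against 9.66, 9.70 and 9.55 in controls. It fell by 1.58, or 2.98-fold (adjusted p = 0.0021), with every POMCMfn2KO liver about 1 unit or more below the controls. A dim second probe set differed by -0.12, and the mean of both probe sets by -0.85 (adjusted p = 0.00367). Mgst1, of the endoplasmic reticulum and outer mitochondrial membrane, had 14.61 to 14.71 in POMCMfn2KO and 14.64 to 14.71 in control liver (difference -0.01, 95% interval -0.13 to 0.12). A dimmer Mgst1 probe set was higher by 0.42 and passed the test where it stood for the gene (adjusted p = 0.0262), so the 2 probe sets disagreed. Gstk1, the kappa-class enzyme of mitochondria and peroxisomes, differed by 0.01 (adjusted p = 0.964). Gstz1, the tyrosine pathway isomerase, differed by -0.28 (adjusted p = 0.101); POMCMfn2KO 4 alone lay above the controls at 12.66, and without it Gstz1 passed (adjusted p = 0.00411).

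**Figure D4:**
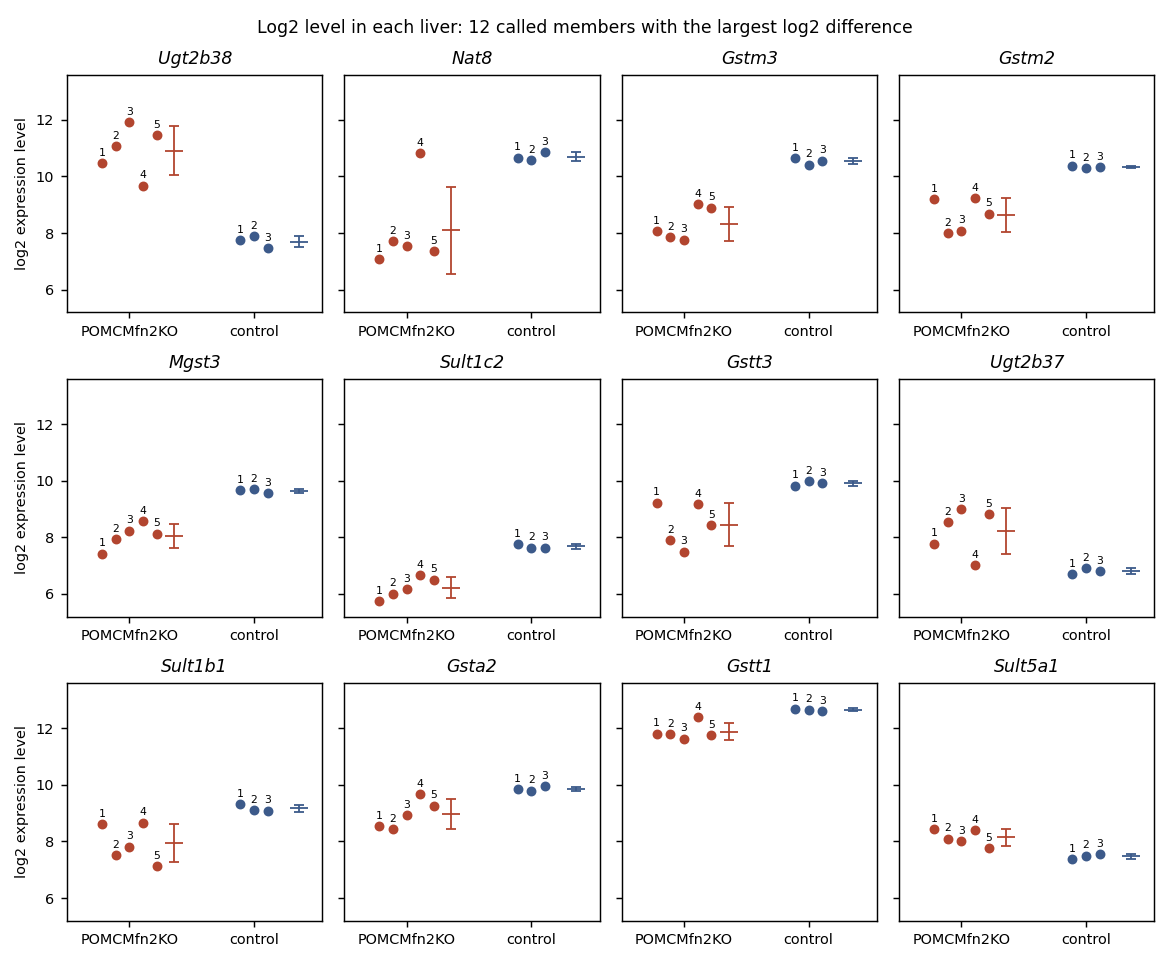
Log2 expression level in each liver for the 12 called genes with the largest log2 difference; points are single livers with their replicate number, and the bars show mean ± SD (n = 5 POMCMfn2KO, left, and n = 3 control, right). Groups are separate in all panels but that of Nat8, where POMCMfn2KO 4 at 10.82 sits among the controls.

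Among the UDP-glucuronosyltransferases, 3 of 10 tested genes rose, 1 fell and 6 did not pass; 4 differences were above 0 and 6 below (median -0.06). Of the rises, 2 were left with any 1 control, POMCMfn2KO 2, 3 or 5 dropped. The 3 that rose belong to the UGT2B family, which glucuronidates steroids, bile acids and drugs. Ugt2b38 had 10.46, 11.06, 11.91, 9.67 and 11.46 in POMCMfn2KO liver, against 7.74, 7.89 and 7.48 in controls. It rose by 3.21, or 9.27-fold (adjusted p = 0.0020), and its lowest POMCMfn2KO liver, number 4, was still well above all controls. Ugt2b37 had 7.77, 8.54, 8.98, 7.01 and 8.82 in POMCMfn2KO liver, against 6.69, 6.90 and 6.80 in controls, and rose by 1.43, or 2.69-fold (adjusted p = 0.0371). The order of the 5 POMCMfn2KO livers was that of Ugt2b38, with numbers 1 and 4 lowest, and POMCMfn2KO 4 barely cleared the controls. Ugt2b1 had 13.25, 13.44, 13.63, 13.56 and 13.59, against 12.95, 12.94 and 12.86 in controls, and rose by 0.58, or 1.49-fold (adjusted p = 0.0040). The call of Ugt2b37 was lost when any 1 control or POMCMfn2KO 2, 3 or 5 was dropped (adjusted p at most 0.125), and with a trended and robust variance (0.0579).

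Ugt2b5 did not pass: it had 13.12, 13.95, 13.91, 13.81 and 14.14 in POMCMfn2KO liver, against 13.35, 13.33 and 13.36 in controls (difference 0.44, adjusted p = 0.145). POMCMfn2KO 1 lay below the controls and the other 4 above them, and without POMCMfn2KO 1 the gene passed (adjusted p = 0.00227). Ugt2b34, Ugt2b35, Ugt2b36 and Ugt2a3, which lie in the same chromosome 5 cluster, differed by -0.27 to -0.07, with adjusted p of 0.203 or more. The upstream windows of Ugt2b38, Ugt2b37 and Ugt2b5 are shown because they were the most alike of the UGT2B genes while the measured differences were 3.21, 1.43 and 0.44.
Ugt2b38, chr5:87424204-87424453, minus strand: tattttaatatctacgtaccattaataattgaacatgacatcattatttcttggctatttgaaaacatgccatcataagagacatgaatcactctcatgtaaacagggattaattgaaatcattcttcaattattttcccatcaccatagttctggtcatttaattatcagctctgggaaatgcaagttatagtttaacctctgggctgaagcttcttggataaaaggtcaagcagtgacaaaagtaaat
Ugt2b37, chr5:87254789-87255038, minus strand: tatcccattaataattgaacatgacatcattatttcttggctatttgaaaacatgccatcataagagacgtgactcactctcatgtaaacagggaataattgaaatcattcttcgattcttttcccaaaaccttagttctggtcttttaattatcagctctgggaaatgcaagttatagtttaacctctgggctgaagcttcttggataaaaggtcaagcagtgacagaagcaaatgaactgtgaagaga
Ugt2b5, chr5:87140341-87140590, minus strand: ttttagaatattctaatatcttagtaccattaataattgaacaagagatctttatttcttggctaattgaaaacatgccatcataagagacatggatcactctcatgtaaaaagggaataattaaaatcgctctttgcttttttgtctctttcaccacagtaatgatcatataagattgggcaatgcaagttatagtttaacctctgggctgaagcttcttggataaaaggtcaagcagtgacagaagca
Ugt2b37 and Ugt2b38 shared 84.8% of aligned columns, Ugt2b5 and Ugt2b38 81.5%, and Ugt2b5 and Ugt2b37 72.6%; every other pair of the 7 UGT2B genes shared 46.3% to 60.1%. None of the 3 windows held the antioxidant response element core. The transcripts of such close relatives may be bound by one another's probes, which the array values cannot separate.

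Ugt3a1, whose human counterpart uses UDP-N-acetylglucosamine in place of UDP-glucuronate, fell by 0.65 (adjusted p = 0.0292). It had 10.82, 10.98, 10.72, 11.37 and 10.51 in POMCMfn2KO liver, against 11.64, 11.59 and 11.37 in controls, and a second probe set gave -0.66. POMCMfn2KO 4 overlapped with the lowest control. The call was lost when any 1 control or POMCMfn2KO 2 or 3 was dropped (adjusted p at most 0.118). Ugt3a2 differed by -0.05 (95% interval -0.20 to 0.10).

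Of 7 tested sulfotransferases, 2 fell, 1 rose and 4 did not pass (median difference 0.11). With any 1 control dropped only the fall of Sult1c2 was called. Sult1c2 had 5.73, 6.01, 6.17, 6.65 and 6.50 in POMCMfn2KO liver, against 7.77, 7.63 and 7.63 in controls. It fell by 1.46, or 2.76-fold (adjusted p = 0.0017), with no overlap; POMCMfn2KO 1 lay below the filter on dim genes, so background limits the size of the fall. Sult1b1, which sulfates thyroid hormones and phenols, had 8.61, 7.52, 7.82, 8.67 and 7.13, against 9.32, 9.12 and 9.09 in controls, and fell by 1.23, or 2.34-fold (adjusted p = 0.0328). POMCMfn2KO 1 and 4 were the least low. It lies next to the Ugt2 genes on chromosome 5, where Ugt2b38 rose. Its call was lost when any 1 control or POMCMfn2KO 2 or 3 was dropped (adjusted p at most 0.122).

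Sult5a1 had 8.44, 8.10, 8.0, 8.42 and 7.76 in POMCMfn2KO liver, against 7.37, 7.50 and 7.56 in controls, and rose by 0.67, or 1.59-fold (adjusted p = 0.0176). All POMCMfn2KO livers lay above all controls; the call was lost when any 1 control was dropped (adjusted p at most 0.0826). The bright sulfotransferases differed less. Sult1a1, the main phenol sulfotransferase, had 13.66 in POMCMfn2KO 1 and 12.76 to 13.16 in the other POMCMfn2KO livers, against 12.97 to 12.99 in controls (difference 0.11, adjusted p = 0.692). Sult1d1, which acts on catecholamines in mice, had 13.34 in POMCMfn2KO 1 and 11.54 to 12.13 in the others, against 11.80 to 11.91 in controls (difference 0.31, adjusted p = 0.570). In both genes POMCMfn2KO 1 was the highest of all 8 livers. Sult2a8, a mouse bile acid sulfotransferase, differed by 0.16 (adjusted p = 0.353) and passed without POMCMfn2KO 1 (adjusted p = 0.0240); Sult4a1 differed by 0.03.

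Nat8 fell, and Nat1 and Nat2 did not pass. Nat8, whose human counterpart acetylates cysteine conjugates in the last step of mercapturate formation, had 7.08, 7.71, 7.53, 10.82 and 7.36 in POMCMfn2KO liver, against 10.67, 10.58 and 10.86 in controls. It fell by 2.60, or 6.07-fold (adjusted p = 0.0396), with an SD of 1.54 in POMCMfn2KO and 0.15 in control liver. POMCMfn2KO 1, 2, 3 and 5 lay far below the controls and POMCMfn2KO 4 among them; without POMCMfn2KO 4 the difference was -3.28. The call was lost when any 1 control or POMCMfn2KO 1, 2, 3 or 5 was dropped (adjusted p at most 0.128), and with a trended and robust variance (0.0834). Nat1 differed by -0.29 (adjusted p = 0.122) and Nat2 by -0.19 (0.105), both arylamine acetyltransferases, and both passed without POMCMfn2KO 4 (0.0354 and 0.0476).

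The 9 dim genes were Mgst2, Gstt4, Gsto2, Sult1c1, Sult1e1, Sult2a2, Sult2b1, Sult3a1 and Sult6b1. Their means over the arrays lay below 5.80, and they were not tested. The estrogen sulfotransferase gene Sult1e1 had 6.97 in POMCMfn2KO 1, 4.11 to 4.29 in the other POMCMfn2KO livers and 4.15 to 4.34 in controls.

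Genes of glutathione, UDP-glucuronate and sulfate metabolism, methyl and amino acid conjugation, export and regulation were taken from 6 lists. Of 73 tested, 5 rose and 14 fell, which is 6.85% and 19.2%, against 7.02% and 10.9% of all genes; the median difference was -0.11. Without control 1, 2 and 3 the counts were 2 and 5, 1 and 5, and 1 and 7, rising and falling; without POMCMfn2KO 2 and 3, each alone, they were 3 and 11, and 3 and 8. With POMCMfn2KO 2 and 3 both left out they were 2 and 3.

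**Figure D5:**
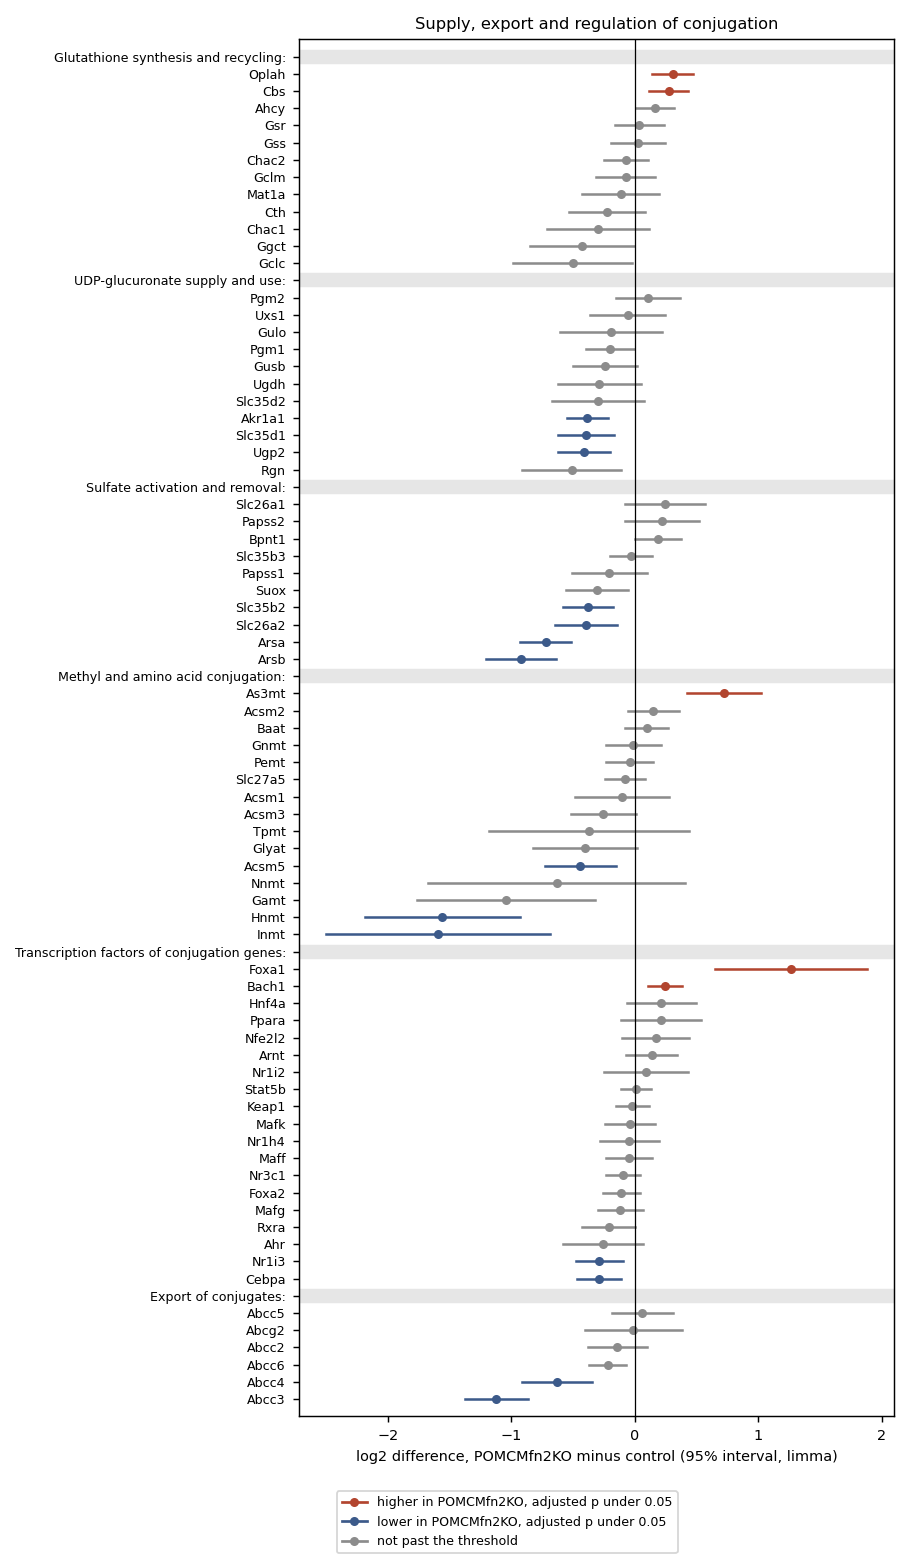
Log2 difference, POMCMfn2KO minus control, for 73 tested genes of glutathione, UDP-glucuronate and sulfate metabolism, methyl and amino acid conjugation, transcription factors and exporters; points are the differences and lines the 95% intervals from limma (n = 5 POMCMfn2KO and 3 control livers). Abcc3, Arsa and Arsb lie clear of 0 on the left, As3mt and Foxa1 on the right.

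In glutathione synthesis and recycling 2 of 12 tested genes rose, 0 fell and 10 did not pass. The called share was 16.7%, against 18.0% of all genes in either direction and 7.02% that rose. Of the 12 differences 5 were above 0 and 7 below, with a median of -0.07. The largest in size was that of Gclc, at -0.51 (adjusted p = 0.133). Gclc did not pass, although its groups did not overlap (10.87 to 11.93 in POMCMfn2KO and 12.03 to 12.18 in control liver). Cbs, which commits homocysteine to cysteine synthesis, rose by 0.27 (adjusted p = 0.0304), and Oplah, the 5-oxoprolinase that returns glutamate, by 0.31 (0.0237). Both were lost when any 1 control or POMCMfn2KO 3 was dropped, and Cbs also without POMCMfn2KO 2 (adjusted p at most 0.109 for Oplah and 0.113 for Cbs). In UDP-glucuronate supply and use 3 of 11 fell (27.3%, against 10.9% of all genes) and 8 did not pass. Ugp2, which makes UDP-glucose, fell by 0.41 (adjusted p = 0.0182; 0.63 on its _at probe set), Slc35d1, which carries UDP-glucuronate into the endoplasmic reticulum, by 0.39 (0.0278), and Akr1a1, which reduces glucuronate, by 0.39 (0.00921). Akr1a1 was lost when control 1 was dropped (0.0528), Ugp2 without any 1 control (up to 0.0832), and Slc35d1 without any 1 control or POMCMfn2KO 2 or 3 (up to 0.105) and with the mean of its probe sets (0.197).

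In sulfate activation and removal 4 of 10 fell (40%, against 10.9% of all genes) and 6 did not pass. Papss1 and Papss2, which make PAPS, differed by -0.21 and 0.22, and Bpnt1 by 0.18, without passing. The genes that fell encode lysosomal sulfatases and carriers, so this share does not measure the supply of PAPS to the sulfotransferases. The lysosomal sulfatases Arsb and Arsa fell by 0.92 (adjusted p = 0.00243) and 0.72 (0.00163); with the mean of its probe sets Arsb fell by 0.47 (0.0125). Arsb had 8.16 in POMCMfn2KO 1 and 8.66 to 8.75 in the other POMCMfn2KO livers, against 9.47 to 9.53 in controls. The sulfate carrier Slc26a2 fell by 0.39 (adjusted p = 0.0384) and the PAPS carrier Slc35b2 by 0.38 (0.0211). Slc26a2 had 5.84 to 6.29 in POMCMfn2KO and 6.24 to 6.54 in control liver. Its groups overlapped, and its values lay near the filter on dim genes at 5.80. Slc26a2 was lost when control 1 or 2 or POMCMfn2KO 2, 3 or 4 was dropped (adjusted p at most 0.152), and Slc35b2 without control 2 or 3 or POMCMfn2KO 3 (up to 0.0954) and with the mean of its probe sets (0.0885).

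In methyl and amino acid conjugation 3 of 15 fell (20%) and 1 rose (6.67%), against 10.9% and 7.02% of all genes. Hnmt, the histamine methyltransferase, had 9.75 in POMCMfn2KO 4 and 8.40 to 8.63 in the other POMCMfn2KO livers, against 10.15 to 10.41 in controls. It fell by 1.56 (adjusted p = 0.00705), and POMCMfn2KO 4 again lay nearest to the controls. The call of Hnmt was lost when POMCMfn2KO 2 and 3 were left out together (0.0520). Inmt, an indole amine methyltransferase, fell by 1.60 (adjusted p = 0.0257) and Acsm5, an acyl-CoA synthetase, by 0.44 (0.0416). As3mt, the arsenite methyltransferase, rose by 0.72 (adjusted p = 0.00795). Inmt was lost when any 1 control was dropped (adjusted p at most 0.0942) and Acsm5 without any 1 control or POMCMfn2KO 2 or 3 (up to 0.153) and with quantile normalization (0.0515).

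Of 19 transcription factors of conjugation genes 2 rose and 2 fell, 10.5% each, against 7.02% and 10.9% of all genes. In either direction 21.1% of the list was called, close to the 18.0% of all genes. Foxa1, a liver pioneer factor, had 8.49, 9.88, 9.18, 8.58 and 9.09 in POMCMfn2KO liver, against 7.86, 7.78 and 7.69 in controls, and rose by 1.27 (adjusted p = 0.0144). Bach1, a repressor at NRF2 sites, rose by 0.25 (adjusted p = 0.0253), Cebpa fell by 0.29 (0.0355), and Nr1i3, which encodes CAR, fell by 0.29 (0.0433). Nfe2l2, which encodes NRF2, differed by 0.17 (adjusted p = 0.370) and its inhibitor Keap1 by -0.02 (0.852); these genes were named after their values were seen. Foxa1 was lost when any 1 control was dropped (adjusted p at most 0.0646), Bach1 without control 2 or 3 or POMCMfn2KO 2 (up to 0.116), Cebpa without any 1 control or POMCMfn2KO 3 or 5 (up to 0.133), and Nr1i3 without any 1 control or POMCMfn2KO 1, 3 or 5 (up to 0.169). Bach1 was also lost with the mean of its probe sets (0.216), and Cebpa and Nr1i3 with quantile normalization (0.0584 and 0.0841).

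Of 6 tested exporters 2 fell (33.3%, against 10.9% of all genes) and 4 did not pass. Abcc3, which pumps glucuronides into blood, had 9.63, 9.92, 9.71, 10.08 and 9.57 in POMCMfn2KO liver, against 10.89, 10.86 and 10.96 in controls. It fell by 1.12, or 2.17-fold (adjusted p = 0.000598), and kept its call whichever array was left out. Abcc4, a second basolateral pump, fell by 0.63 (adjusted p = 0.0103) and was lost when control 1 or 2 was dropped (up to 0.0553). Its POMCMfn2KO values, 5.94 to 6.50, lay near the filter on dim genes at 5.80, against 6.72 to 6.95 in controls.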

How the data were processed

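Liver RNA of 5 POMCMfn2KO and 3 control mice was hybridised to 1 Affymetrix array each. The authors deposited log2 expression values per probe set, made with RMA in the affy package per the submitters' processing notes; versions are not given in the sources used here. Precision is set by how many arrays there are, and p-values set each difference against the spread between these mice. The fit took the same variance for both groups, while 9593 of the 11986 genes tested had the larger SD in POMCMfn2KO liver. Of 45101 probe sets, 64 were controls, 34945 had 1 gene symbol, 932 several and 9160 none; only the first kind named a gene. The brightest probe set stood for each of 18193 genes, and 6207 with a mean below 5.80 were left out as dim.

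The remaining 11986 genes were fitted with limma 3.58.1 in R 4.3.3 (no trend, not robust, 2-sided, POMCMfn2KO minus control), with Benjamini-Hochberg adjustment over all of them and a threshold of 0.05, and the fit was tested on simulated data. "Rose" and "fell" mark genes past it, and differences are log2. Named were the called enzymes, the lowest p of each subfamily without a call, dim enzymes, and up to 4 called genes of each pathway list; other genes were named after their values were seen, and per-array values are given for at least the 12 called enzymes with the largest difference. Enzymes, lists, tests and alternatives were chosen with earlier results of these data known. Alternatives changed the filter, probe set, scaling, variance model, threshold and pairing, and left out arrays; centring on the genes tested was added after seeing the data. Same-numbered arrays of the groups correlated at 0.04, 0.04 and -0.03 in their deviations from the control or POMCMfn2KO mean, so the numbers were not taken as pairs.

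Upstream windows are the first 250 bases of RefSeq promoters (GRCm38.p6). Of the 49 genes, 42 matched by gene ID. Gene order came from RefSeq; the array files name no build, so no positions of probes are given. Some genes of the pathway lists and 1 motif searched are not reported here.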

Additional observations from a re-analysis of the deposited data

Results flagged for a closer look

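Among 68 genes checked in the 5 POMCMfn2KO livers, the highest or lowest liver of 6 lay far from the other 4 (by Dixon's ratio of gap to range); chance alone flags about 1 group in 20. Liver 4 was the one apart in 4 of them: Gstt1 at 12.39 (others 11.63 to 11.81, controls 12.60 to 12.70), Gstz1 at 12.66 (others 12.16 to 12.27, controls 12.58 to 12.61), Nat8 at 10.82 (others 7.08 to 7.71, controls 10.58 to 10.86) and Hnmt at 9.75 (others 8.40 to 8.63, controls 10.15 to 10.41). Liver 1 was apart for Sult1e1 at 6.97 (others 4.11 to 4.29, controls 4.15 to 4.34), a gene left out as dim, and for Arsb at 8.16 (others 8.66 to 8.75, controls 9.47 to 9.53). The control group of 3 is too small for this check.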

How the results depend on the processing

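All genes are given first, then the 40 enzymes, as counts higher and lower. Leaving out 1 array gave 286 to 1156 higher and 496 to 1642 lower of all genes, 2 to 8 and 5 to 18 of the enzymes, 0 to 2 and 4 to 12 of the glutathione transferases, 2 to 4 and 0 to 1 of the UDP-glucuronosyltransferases, 0 to 2 and 1 to 2 of the sulfotransferases, and 1 to 6 and 5 to 19 of the pathway genes. Without POMCMfn2KO 2 and 3 the counts were 239 and 401 of all genes and 2 and 5 of the enzymes, with 0 and 4 glutathione transferases, 0 UDP-glucuronosyltransferases lower, 0 and 1 sulfotransferases, and 2 and 3 pathway genes. At a threshold of 0.01 they were 253 and 449, and 2 and 5, with the same class counts and 1 and 5 pathway genes. Array weights gave 1921 and 2473 of all genes, 20 enzymes lower, 2 UDP-glucuronosyltransferases lower, 2 sulfotransferases higher, and 8 and 29 pathway genes. Quantile normalization left 1 glutathione transferase higher, and the stricter filter 1 sulfotransferase lower. With the replicate number as a block, 0 glutathione transferases and 3 pathway genes were higher, and 715 and 1176 of all genes were called; the fits with 6 and 8 arrays are identical, since POMCMfn2KO 4 and 5 stand alone in their blocks. No called enzyme changed sign in any fit; Mgst1 turned to 0.42 when only probe sets with plain _at IDs were used. Without POMCMfn2KO 4, 22.9% of all genes passed, and all 19 calls of enzymes were kept with 5 more. Calls of both small and large differences were insecure, and some were lost on leaving out a control array or a POMCMfn2KO array. Nat8 (-2.60) lost its call in 7 of the 8 fits that left out 1 array. Ugt2b37 (1.43) and Gsto1 (0.25) each lost theirs in 6, while Ugt2b38 (3.21) and Ugt2b1 (0.58) kept theirs in all 8.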

Other observations

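Probe sets annotated to several genes were left out of the comparison and are given as values. The 3 probe sets shared by 8 UGT1A genes, whose enzymes glucuronidate bilirubin and phenols, differed by -0.03, -0.06 and -0.07 between POMCMfn2KO and control liver. An alpha-class glutathione transferase probe set shared by 3 genes had 8.13, 7.78, 8.28, 9.05 and 8.61 in POMCMfn2KO liver, against 9.89, 9.77 and 9.79 in controls, a difference of -1.45. Its groups did not overlap, and POMCMfn2KO 4 was the least low.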
